A study of Mus musculus with 2 samples.

Results

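The Wnt/beta-catenin pathway was described here through 35 of its genes, taken without the casein kinases, in a list of chromatin sites pulled down with the transcription factor Sox4. The 35 are receptors, genes for receptor turnover and ligand export, transducers, destruction complex members and nuclear effectors, looked up by symbol among all genes that the list gives for each peak. A promoter peak is a peak whose interval lies within 5 kb of the transcription start site (TSS) of a listed transcript, and 21 of the 35 genes had one. Across the 20953 protein-coding mouse genes, 6875 (32.8%, exact 95% interval 32.2 to 33.5%) had a promoter peak by the same rule.

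The cells were progenitor B cells of C57BL/6 mice from embryonic fetal liver. Per the labels, both libraries of the series came from cells that received, in sequence, retroviral constructs for BirA, then p190 Bcr-Abl, then SE-Cre and finally BAP-Sox4, with sorting after every step. BirA is a biotin ligase, BAP is the tag it biotinylates, p190 Bcr-Abl is a leukaemia kinase, and streptavidin beads captured the tagged Sox4 with its chromatin. There was 1 such bioChIP library and 1 input library, whose own values were not used here. Both carry all 4 constructs, Sox4 came from a retrovirus, and no library of cells without the tagged protein was analysed here. Results therefore describe 1 library with no replicate check, and no test between conditions could be made.

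In Wnt signalling, a secreted Wnt ligand binds a Frizzled receptor and an LRP co-receptor at the cell surface, and Dishevelled proteins pass the signal on. Without ligand, a destruction complex built on Axin and APC lets GSK3 phosphorylate beta-catenin, which the ubiquitin ligase subunit beta-TrCP then marks for degradation. With ligand, beta-catenin persists, enters the nucleus and joins TCF/LEF proteins and the co-activators BCL9 and Pygopus on DNA. Lef1 is known for its role in the growth of progenitor B cells, and Sox4 and TCF/LEF proteins share the HMG-box type of DNA-binding domain.

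Each peak carries the authors' deposited values, which rank peaks within this list only. Tags are the reads counted in the peak, and fold is the deposited linear enrichment over the background the peak caller expected. The score was taken to be minus 10 times the log10 of the caller's p-value. Fold does not follow the tag count of the whole peak: a fold of 5.09 was given to peaks with 38 and with 104 tags. The list held 8730 peaks with 763284 tags in all, and its medians were 71 tags, fold 4.43 and score 104.9. Sequencing depth was not given in the sources used here. As a look at the labelled cell type, 8 of 10 B-lineage marker genes had a promoter peak, all but Pax5 and Cd79b, beside 32.8% of all genes. This held for 1 of 6 T-lineage, 1 of 5 myeloid, 1 of 5 erythroid and 0 of 5 hepatocyte markers. The difference from the T lineage was smaller for any listed peak, at 10 of 10 B-lineage and 5 of 6 T-lineage markers. Any listed peak was found at 1 of 5 myeloid, 2 of 5 erythroid and 1 of 5 hepatocyte markers, beside 48.9% of all genes. A peak is not a measure of expression, so this check covers marking only.

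Promoter sequences of members are shown first, to set the letters at starts that had a peak beside those at starts that had none. They come from RefSeq (GRCm38.p6), in windows from 250 bases before to 50 after a start. Windows were held for 24 of the 35 genes, 34 windows in all. Genes without an entry were Apc, Axin1, Bcl9l, Btrc, Fzd2, Fzd3, Fzd6, Fzd8, Lrp5, Lrp6 and Znrf3. Motifs were searched on both strands. For SOX proteins they were ACAAAG, the related form ACAATG, and the longer form AACAAAG, which contains the first of these. For TCF/LEF proteins the letters were CTTTGAT. The GC box was searched as GGGCGG, the ETS motif as CCGGAAG, the palindromic E box as CACGTG, the CRE core as TGACGT, and the CCAAT box by the letters of its name. Peak positions in this text are on mm9 and were not converted, so the 2 builds are kept apart.

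SOX letters occurred in windows of members with and without a peak. The first set shows the bases just before the start at Fzd7, Bcl9 and Tcf7l1, whose starts were covered by a peak, and at Fzd1 and both starts of Tcf7l2, genes with no listed peak. Capitals mark the SOX letters named above on either strand, and every sequence runs 5′ to 3′ on the strand of the gene.
Fzd7, chr1:59481897-59482146, plus strand: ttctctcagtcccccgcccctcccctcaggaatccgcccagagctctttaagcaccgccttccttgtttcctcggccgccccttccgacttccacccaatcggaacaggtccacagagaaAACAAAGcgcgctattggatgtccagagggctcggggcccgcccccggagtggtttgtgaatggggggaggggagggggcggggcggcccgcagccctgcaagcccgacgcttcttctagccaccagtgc
Bcl9, chr3:97227365-97227464, minus strand: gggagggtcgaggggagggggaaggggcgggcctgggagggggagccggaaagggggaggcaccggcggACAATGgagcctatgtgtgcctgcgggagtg
Tcf7l1, chr6:72789046-72789145, minus strand: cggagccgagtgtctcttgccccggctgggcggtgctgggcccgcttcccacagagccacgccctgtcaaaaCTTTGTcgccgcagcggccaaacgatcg
Fzd1, chr5:4758217-4758316, minus strand: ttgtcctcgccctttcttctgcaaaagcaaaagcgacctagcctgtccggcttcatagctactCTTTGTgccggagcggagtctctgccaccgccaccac
Tcf7l2, first start, chr19:55741560-55741809, plus strand: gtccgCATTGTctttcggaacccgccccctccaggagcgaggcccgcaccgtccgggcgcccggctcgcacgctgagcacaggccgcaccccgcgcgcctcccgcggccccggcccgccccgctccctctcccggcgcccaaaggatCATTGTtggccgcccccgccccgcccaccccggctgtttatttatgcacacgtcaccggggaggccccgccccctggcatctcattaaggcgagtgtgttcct
Tcf7l2, second start, chr19:55895221-55895320, plus strand: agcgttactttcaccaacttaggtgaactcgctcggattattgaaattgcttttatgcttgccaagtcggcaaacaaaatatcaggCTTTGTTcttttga

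The second set shows 3 members with repeated matches to another motif. Gsk3b held 4 CCAAT matches in its window, 3 of them before the start, and its promoter peak had the highest score of the 35 genes. Ctnnb1 held 2 CCAAT matches before the first of its starts. Dvl2 held 3 E boxes, and its own start was not covered by a peak. Capitals mark the CCAAT box, on either strand, in Gsk3b and Ctnnb1, and the E box in Dvl2.
Gsk3b, chr16:38088751-38089000, plus strand: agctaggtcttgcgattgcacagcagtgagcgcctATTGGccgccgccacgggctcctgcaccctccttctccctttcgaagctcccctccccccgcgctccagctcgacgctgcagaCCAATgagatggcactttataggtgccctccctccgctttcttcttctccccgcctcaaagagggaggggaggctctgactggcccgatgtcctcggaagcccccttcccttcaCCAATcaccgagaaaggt
Ctnnb1, first start, chr9:120933150-120933399, plus strand: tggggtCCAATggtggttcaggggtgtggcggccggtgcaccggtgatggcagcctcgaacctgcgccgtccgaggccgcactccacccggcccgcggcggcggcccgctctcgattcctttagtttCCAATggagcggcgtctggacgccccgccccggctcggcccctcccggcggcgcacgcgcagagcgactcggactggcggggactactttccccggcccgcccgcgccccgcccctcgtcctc
Dvl2, chr11:70000442-70000591, plus strand: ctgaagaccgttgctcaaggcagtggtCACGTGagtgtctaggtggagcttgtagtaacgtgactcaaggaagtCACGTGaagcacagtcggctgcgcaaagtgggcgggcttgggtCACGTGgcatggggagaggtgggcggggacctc

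Most of the marked genes encode proteins that act inside the cell. Promoter peaks were found at 4 of 5 cytoplasmic transducers, 6 of 7 genes of the destruction complex and its target beta-catenin, and 6 of 8 nuclear effectors. In contrast, 4 of 12 receptors and co-receptors and 1 of 3 genes for receptor turnover and ligand export had one, both 33.3% and so near the share of all genes. Summed after the values were seen, 16 of the 20 members that act inside the cell and 5 of the 15 at the surface or in ligand export had a promoter peak. That contrast narrowed with stricter peaks. With scores at or above the list median it was 9 of 20 against 5 of 15, beside 18.9% of all genes. At fold 5 or above it was 8 of 20 against 4 of 15, beside 11.9%. The only cytoplasmic transducer counted at either setting was Dvl2, whose promoter peaks did not reach its own start. At these stricter settings the surface members thus lay above the share of all genes, not near it. These are counts in 1 library, and no test of the difference between roles was made. A further 4 members, Fzd9, Rnf43, Nkd1 and Bcl9l, were listed only for peaks elsewhere. The list gives genes up to 25 kb from a peak, and 10 members had no listed peak: Fzd1, Fzd2, Fzd3, Fzd4, Fzd6, Fzd8, Fzd10, Wls, Axin2 and Tcf7l2. In all, 25 of 35 had a listed peak, where 48.9% of all genes did, and 24 had one inside or at most 10 kb from the gene, where 40.8% did.

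**Figure D1:**
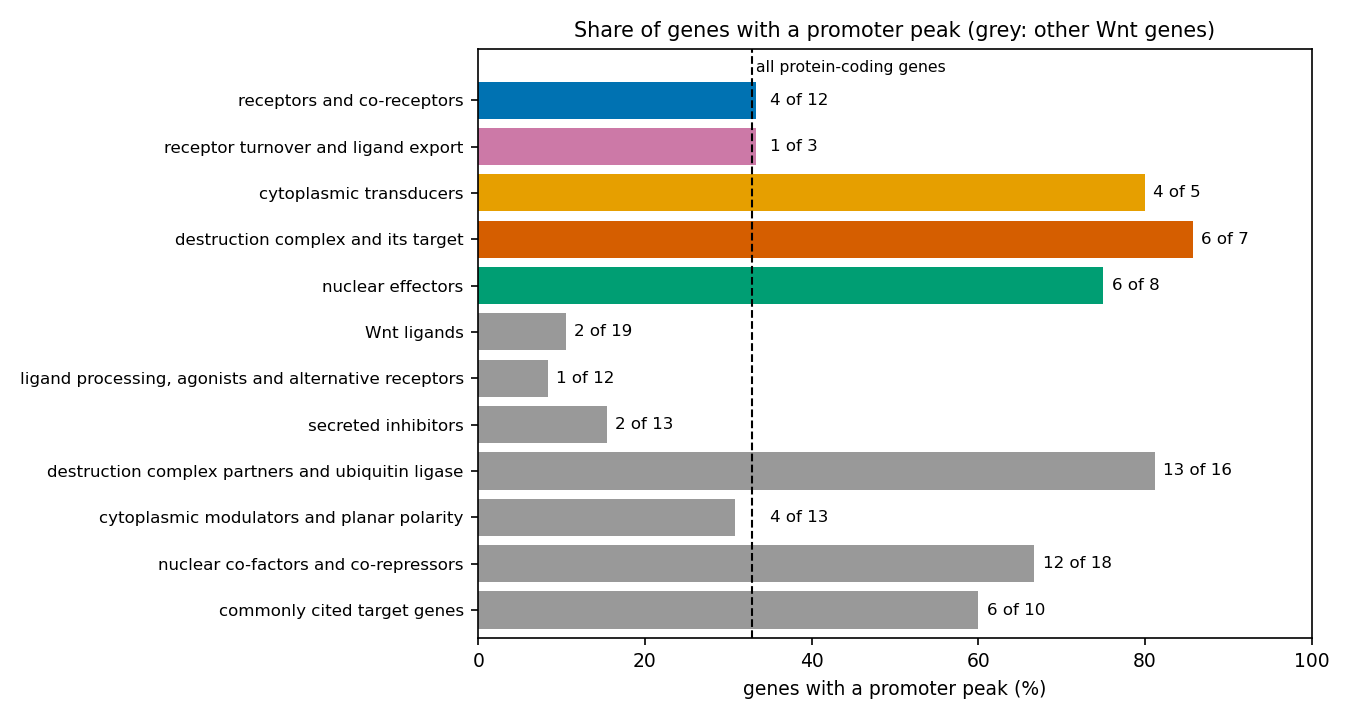
The horizontal axis is the percentage of genes with a promoter peak, with 1 bar per role and the counts beside it. Coloured bars are the 35 pathway genes by role, grey bars are 101 other Wnt genes by role, and the dashed line is the 32.8% of all protein-coding genes. Bars for transducers, destruction complex and nuclear genes reach 75 to 85.7%, whereas ligands, agonists and secreted inhibitors stay below the line.

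The peaks of the 21 genes were of moderate height. Taking for each gene the promoter peak with the highest score, the fold ran from 3.08 to 8.05 with a median of 5.31, beside a median of 4.51 over all 6875 genes with a promoter peak. The median score was 168.2, beside 119.2, and the median tag count was 87, beside 78. In fold, 15 of the 21 lay above the median of all such genes, and in score 13 did. At fold 5 or above, 12 of the 35 members still had a promoter peak, beside 11.9% of all genes. No promoter peak of the 35 reached fold 10, which 1.48% of all genes did. With scores of at least 100 there were 15 members, beside 19.8% of all genes, and with scores at or above the list median 14, beside 18.9%.

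**Figure D2:**
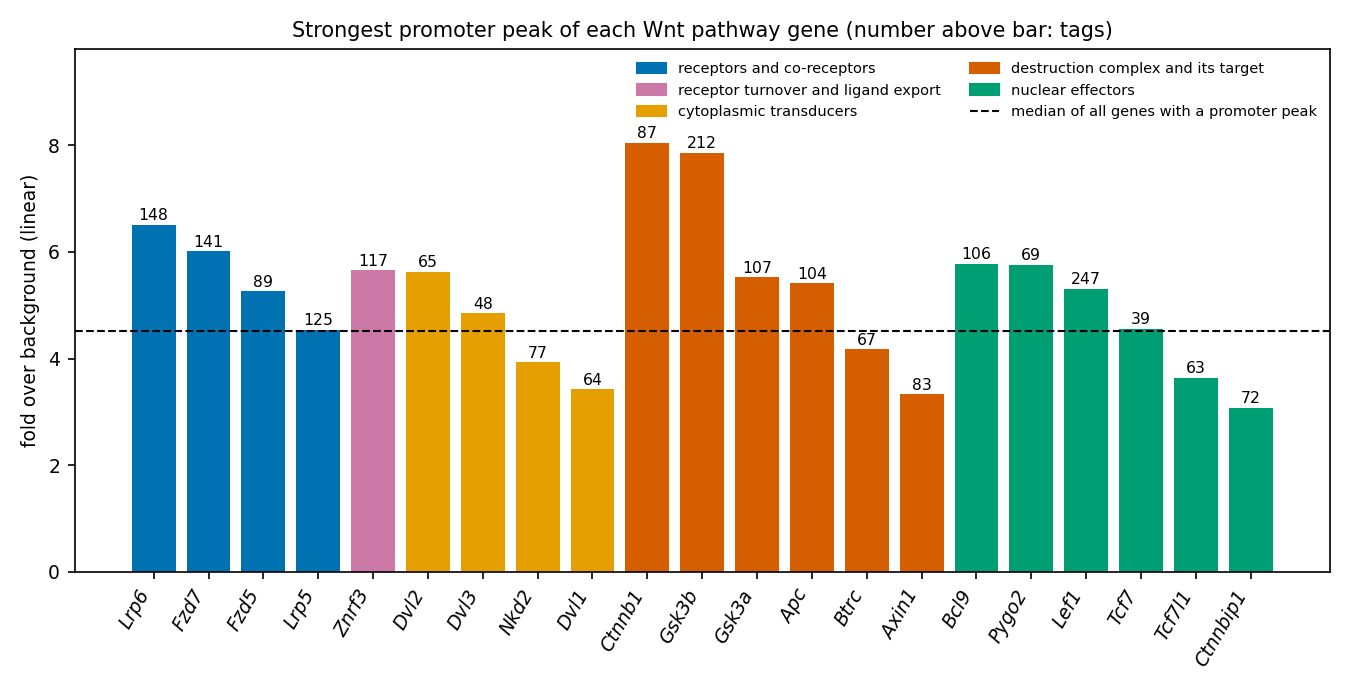
Each bar is the deposited fold (linear axis from 0) of the highest-scoring promoter peak of 1 of the 21 genes, grouped and coloured by role, with the tag count above it. The dashed line is the median fold of all genes with a promoter peak, 4.51. Ctnnb1 and Gsk3b stand highest at 8.05 and 7.86, and Ctnnbip1 is lowest at 3.08.

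Among the receptors, 2 of the 10 Frizzled genes were marked at the start. Fzd7, which encodes a Frizzled receptor, had a peak on chromosome 1 from 59538220 to 59539856 (mm9) that covered its TSS. It held 141 tags (exact Poisson 95% interval 119 to 166) at fold 6.02 and score 303, and ranked 917 of 8730 by score. Fzd5, another Frizzled gene, had a peak at 64783592 to 64784716 of the same chromosome, also over the TSS, with 89 tags (71.5 to 110), fold 5.27 and score 168. The tag intervals of Fzd7 and Fzd5 do not overlap, but the Fzd7 peak was also wider, 1636 bp against 1124 bp, and held 86.2 tags per kb against 79.2. Fzd9 was listed for a peak 12931 bp upstream of its TSS, with 74 tags at fold 3.08.

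Both LRP co-receptor genes had a peak over the TSS, and that of Lrp6 was the higher. The Lrp6 peak on chromosome 6 from 134516504 to 134517613 held 148 tags (125 to 174) at fold 6.51 and score 372, rank 657. The Lrp5 peak on chromosome 19 from 3685652 to 3686899 held 125 tags (104 to 149) at fold 4.54 and score 173, rank 2213. Their tag intervals overlap, so the co-receptors differed in fold and score but not clearly in tags. Lrp5 also had an intronic peak 20469 bp into the gene with 46 tags at fold 5.28. Another peak listed for Lrp5 lay 8506 bp past its end and covered the TSS of Ppp6r3.

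Znrf3 and Rnf43 encode paired ubiquitin ligases that remove Frizzled receptors from the surface, and their loci differed. Znrf3 had a peak over its TSS on chromosome 11 from 5344137 to 5345493, with 117 tags (96.8 to 140), fold 5.66 and score 231. Rnf43 had none near its start, and its 5 listed peaks included 1 inside the gene, 23277 bp from the TSS and closest to 1110028F11Rik, with 36 tags at fold 4.11. The other 4 lay 12929 to 18893 bp past its end, and Mir142, a microRNA gene of blood cells, was the closest gene of each. The highest of these held 193 tags at fold 10.19 and score 592, more than any peak at a Frizzled gene. Wls, whose product carries Wnt ligands to the surface, had no listed peak.

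All 3 Dishevelled genes had a promoter peak by the rule, but at Dvl2 no peak reached the start. Dvl1 had a peak over its TSS on chromosome 4 from 155221196 to 155222120 with 64 tags (49.3 to 81.7), fold 3.43 and score 81.8. Dvl3 had one on chromosome 16 from 20516764 to 20517428 with 48 tags (35.4 to 63.6), fold 4.85 and score 98.0. Both scores lay below the median of the list. For Dvl2 the peaks lay 4672 and 2902 bp upstream of the TSS, at folds of 5.63 and 4.81 with 65 and 66 tags. The first covered the TSS of Phf23 and the second began 1037 bp inside that gene, which was the closest gene of both. With a window of 1 kb, Dvl2 was the one member lost, leaving 20 of 35 beside 30.2% of all genes. With a window of 20 kb Fzd9 and Bcl9l were added, giving 23 beside 41.9%.

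The Naked cuticle genes, which encode binders and inhibitors of Dishevelled, were marked differently. Nkd2 had a peak over its TSS on chromosome 13 from 73984340 to 73985442 with 77 tags (60.8 to 96.2), fold 3.93 and score 104. A second peak lay 19628 bp inside Nkd2, with 60 tags at fold 4.21. Nkd1 had only an intronic peak, 42422 bp from the nearer of its 2 listed starts, with 88 tags at fold 3.33.

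In the destruction complex, the kinase genes and the scaffold gene Apc had peaks over the TSS. Gsk3b, encoding the beta form of the kinase GSK3, had the highest promoter-peak score of the 35 genes at 598, rank 308, in a peak on chromosome 16 from 38087831 to 38090088. It held 212 tags (184 to 243) at fold 7.86 over a width of 2257 bp. This peak also covered the start of BC031361, a noncoding gene that the list names as its closest. Gsk3a, encoding the alpha form, had 107 tags (87.7 to 129) at fold 5.52 and score 214 (chromosome 7, 26022415 to 26023909). The 2 tag intervals do not overlap, and per kb the peaks held 93.9 tags at Gsk3b and 71.6 at Gsk3a. Gsk3b had in addition an intronic peak 42537 bp from the TSS, with 44 tags at fold 5.09.

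The scaffold genes separated Axin1 and Apc from Axin2. Apc had a peak over its TSS on chromosome 18 from 34380197 to 34381463 with 104 tags (85.0 to 126), fold 5.41 and score 226, shared with the start of Gm10548. Axin1 had one on chromosome 17 from 26275025 to 26276075 with 83 tags (66.1 to 103), fold 3.33 and score 90.4. The Axin1 fold was above that of 8.64% of genes with a promoter peak. Axin2, a feedback inhibitor and widely used readout of the pathway, had no listed peak.

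Btrc encodes beta-TrCP, and Ctnnb1 encodes beta-catenin. The Btrc peak on chromosome 19 from 45437812 to 45438677 held 67 tags (51.9 to 85.1) at fold 4.17 and score 122. A second peak 8015 bp past the end of Btrc, closest to Poll, had fold 8.71 and score 231, both higher than at the Btrc start. Ctnnb1 had 2 promoter peaks on chromosome 9. The first, from 120842008 to 120842955, covered the TSS with 87 tags (69.7 to 107) at fold 8.05 and score 231, the highest promoter-peak fold of the 35 genes. The second, from 120843134 to 120843812, began 617 bp inside that transcript with 44 tags (32.0 to 59.1) at fold 3.66.

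The TCF/LEF genes encode the DNA-bound partners of beta-catenin, and 3 of the 4 had a promoter peak. Lef1 had the most tags of any member, in 2 broad peaks on chromosome 3. The one from 130812889 to 130815631 covered the TSS with 247 tags (217 to 280), fold 5.31 and score 408, rank 567. The other, from 130808616 to 130810843, ended 2372 bp upstream of that TSS and held 206 tags (179 to 236) at fold 4.22 and score 214. They were 2742 and 2227 bp wide, beside a median of 982 bp for the strongest promoter peak of all genes, and the fold of 5.31 was above that of 71.0% of genes with a promoter peak. The tag count of Lef1 was thus high over a wide stretch while the fold was moderate. A further peak lay inside the annotated gene, 15340 bp before its end, with 60 tags at fold 5.77, and its closest gene was Hadh.

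Tcf7 and Tcf7l1 had fewer tags and lower scores than Lef1. The Tcf7 promoter peak on chromosome 11, 52096588 to 52097162, ended 837 bp short of the TSS with 39 tags (27.7 to 53.3), fold 4.56 and score 56.5, the lowest score of the 21 genes. Tcf7 also had an intronic peak 13319 bp from the TSS with 53 tags at fold 4.95. The Tcf7l1 peak covered the TSS (chromosome 6, 72738847 to 72739741) with 63 tags (48.4 to 80.6), fold 3.64 and score 93.9. The tag interval of neither gene overlaps that of Lef1, but the peaks were narrower, 574 and 894 bp, and per kb they held 67.9 and 70.5 tags against 90.1 over the Lef1 start. The upstream Lef1 peak, at fold 4.22, was below Tcf7 in fold. Tcf7l2 had no listed peak.

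Of the co-activator genes, Bcl9 and Pygo2 had a promoter peak and Bcl9l did not. The Bcl9 peak covered the TSS (chromosome 3, 97030870 to 97031981) with 106 tags (86.8 to 128), fold 5.78 and score 277. A weaker Bcl9 peak lay 99 bp before the end of the gene, with 46 tags at fold 4.90. The Pygo2 peak ended 70 bp upstream of the TSS (chromosome 3, 89233930 to 89234689) with 69 tags (53.7 to 87.3), fold 5.76 and score 121. Bcl9l was listed for peaks 5617 and 15786 bp upstream, at folds of 3.14 and 4.34, the nearer of them just outside the 5 kb window. Ctnnbip1, which encodes an inhibitor that keeps beta-catenin from TCF/LEF proteins, had the lowest fold, 3.08, in a peak over its TSS with 72 tags (56.3 to 90.7; chromosome 4, 148891795 to 148892738).

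**Figure D3:**
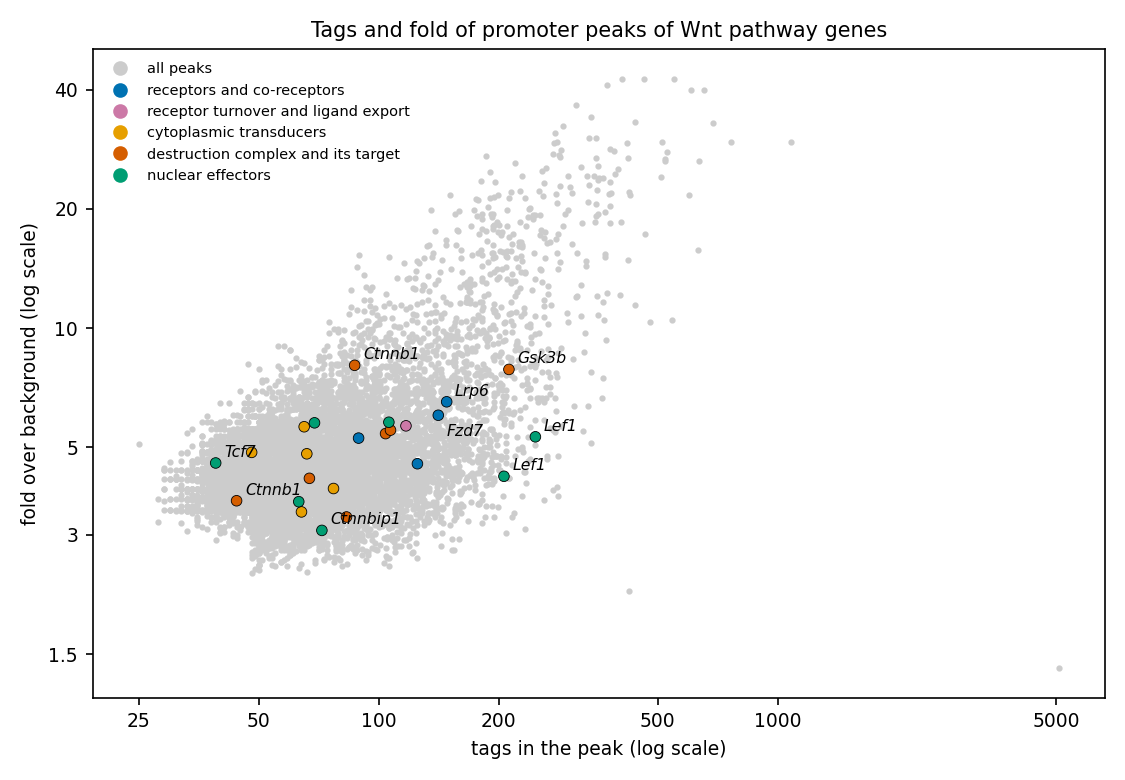
Tags (horizontal) and fold (vertical) are on log axes for all 8730 peaks in grey and for the 24 promoter peaks of the 21 genes in colours by role. The coloured points lie inside the grey cloud between folds of 3.08 and 8.05. Both Lef1 peaks stand to the right with 206 and 247 tags, while the first Ctnnb1 peak has 87 tags and a fold of 8.05.

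Peaks lay on the start itself at 18 of the 21 marked genes (85.7%), near the 86.6% of all genes with a promoter peak. The TSS was inside the peak interval at 18 of the 35 members, where 28.4% of all genes had such a peak. The exceptions among the 21 were Dvl2, Tcf7 and Pygo2, for each of which the list gives 1 transcript. RefSeq holds further starts for Tcf7 and Pygo2, and whether a peak covers those was not tested. Ctnnb1, Lef1 and Dvl2 had 2 promoter peaks each, 3 of 35, where 3.15% of all genes had 2 or more. Since the deposited distances run from the interval, the position of a TSS was recovered where the peaks listed for a transcript gave a single position within 2 bp. For 14 members a peak covered a recovered TSS. Their summits, the points of most tags, lay from 661 bp upstream (Gsk3b) to 416 bp downstream (Apc), 7 on each side. Over all genes, 3063 peaks over a recovered TSS had a median summit position of 35 bp upstream, with quartiles at 123 bp upstream and 72 bp downstream. The summit lay within 100 bp of the TSS at 8 members: 3 bp downstream of the TSS at Nkd2, 17 bp downstream at Ctnnb1, 18 bp upstream at Dvl1, 34 bp upstream at Bcl9, 75 bp upstream at Dvl3, 83 bp downstream at Gsk3a, 93 bp upstream at Znrf3 and 93 bp downstream at Btrc. Gsk3b, with its summit 661 bp upstream, was the member whose peak also covered the start of BC031361.

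**Figure D4:**
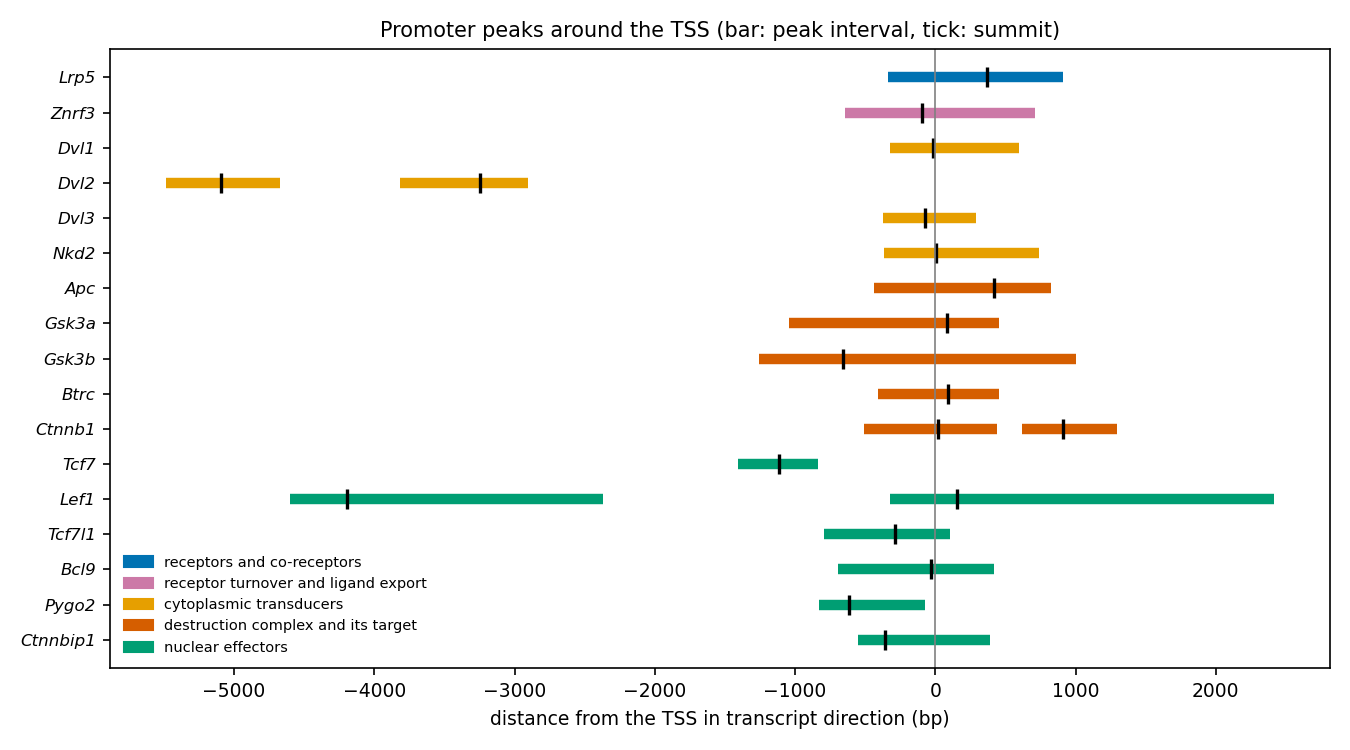
Bars are the promoter peak intervals of the 17 members with both a promoter peak and a recovered TSS. The axis is the distance from that TSS in bp in the direction of the transcript, and black ticks are the summits. For genes with several starts the first one is used. Intervals of 14 members cross 0, those of Dvl2, Tcf7 and Pygo2 lie wholly upstream, and Lef1 and Ctnnb1 each have a second interval that does not reach the TSS.

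The neighbours of some members had peaks as well. Members were listed for 55 peaks, of which 24 were promoter peaks of the member, 8 lay deeper inside the gene and 23 lay outside it. Of these 23, 14 covered the TSS of another gene, such as Aurkaip1 upstream of Dvl1 (98 tags, fold 5.71), Ap2m1 past the end of Dvl3 (72 tags, fold 7.94), and Cks1b and Shc1 upstream of Pygo2 (97 tags, fold 4.65). When a peak was credited only to the gene that the list names as closest, 18 of the 35 kept a promoter peak, beside 27.7% of all genes. The members lost were Dvl2, Apc and Gsk3b, the last 2 because a noncoding gene starts under the same peak.

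Promoter windows of the marked members were rich in G and C. The median GC content was 67.3% over the 23 windows of 15 members with a promoter peak and 58.3% over the 11 windows of 9 members without. For all protein-coding genes these medians were 62.7% over 7199 windows with a promoter peak and 53.3% over 13219 windows without. In both sets the windows with a peak had the higher median GC content. The median ratio of observed to expected CpG pairs did not follow this at the members, at 0.731 with a peak and 0.754 without. For all genes it was 0.808 and 0.388. GC boxes stood in 19 of the 23 member windows with a peak (82.6%) and in 6 of the 11 without (54.5%), beside 67.9% and 36.8% for all genes. Fzd5 had 10 matches and Fzd4, which had no listed peak, had 8. Windows of the same gene can overlap, as they do at Lef1 and Pygo2, and are not independent.

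SOX letters were found at a minority of the members' starts, with or without a peak. ACAAAG or ACAATG occurred in 4 of their 23 windows (17.4%) and in 3 of the 11 windows of the other members (27.3%), beside 25% of all 20418 protein-coding windows. The share was 20.7% for windows of all genes with a promoter peak and 27.4% for windows of genes without one. The 4 windows were those of Fzd7, Bcl9 and Tcf7l1 shown above and the last of 4 Lef1 starts, far inside the gene, which the peak list does not name. Of the marked members with a window, Fzd7 alone held the longer AACAAAG, 130 bases before its start, a form found in 4.89% of all windows. CTTTGAT occurred in none of the 34 member windows, where 3.22% of all windows held it. No other form was searched for TCF/LEF proteins, so these windows may still hold other TCF/LEF letters. The CCAAT box was found in 9 of 23 windows with a peak (39.1%) and 3 of 11 without (27.3%). For all genes with and without a promoter peak these shares were 36.9% and 39.2%. The E box was found in 2 and 1 of the member windows (8.7% and 9.09%), beside 10.8% and 6.57% for all genes. The ETS motif was found in 2 and 2 (8.7% and 18.2%), beside 19.4% and 7.85%. The CRE core was found in 1 and 1 (4.35% and 9.09%), beside 12.3% and 6.82%. The windows are shorter than the peaks, and a match is a description of letters, not a bound site.

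The other genes of the pathway were listed by role from general knowledge, with earlier results of these data known. Of these, 40 of 101 (39.6%) had a promoter peak, near the 32.8% of all genes. By role, this held for 2 of 19 Wnt ligands and 1 of 12 genes for ligand processing, agonists and alternative receptors. It also held for 2 of 13 secreted inhibitors and their receptors, which makes 5 of 44 in sum (11.4%). The ligand genes were Wnt7b, in a peak that also covered AU022754 (60 tags, fold 4.0), and Wnt4 (43 tags, fold 3.84). Notum, encoding an enzyme that inactivates Wnt ligands, had a fold of 2.86. Kremen1 and Sost, which encode a partner of Dickkopf inhibitors and an inhibitor of LRP co-receptors, had folds of 2.81 and 2.54. All 5 folds lay below the median of genes with a promoter peak.

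The remaining lists were of partners, modulators, co-factors and target genes. They are set beside the 32.8% of all genes, and no test between lists was made. Promoter peaks were found at 13 of 16 partners of the destruction complex and its ubiquitin ligase, led by score by Cul1, the scaffold of the ligase (157 tags, fold 5.18), Tnks2, an enzyme that marks Axin for degradation (137 tags, fold 4.95), and the phosphatase subunit gene Ppp2r5e (161 tags, fold 4.81). They were found at 12 of 18 nuclear co-factors and co-repressors, and the co-repressor gene Ctbp1 (202 tags, fold 11.32, score 728), Tbl1xr1 (204 tags, fold 7.17) and the kinase gene Hipk2 (138 tags, fold 11.42, 4195 bp inside the gene) had the highest scores. Cytoplasmic modulators and planar polarity genes had 4 of 13 (30.8%), near the share of all genes. Cxxc5, Vangl2 and Dact3 came first there by score, at folds of 4.20, 8.03 and 4.55. Commonly cited target genes had 6 of 10, with Jun, Mycn and Myc first at folds of 5.81, 5.96 and 5.15. Ctbp1, Hipk2 and Tbl1x (141 tags, fold 9.01) exceeded the promoter-peak fold of each of the 35 members. At Hipk2 this was the peak inside the gene, while the peak over its TSS had 185 tags at fold 3.33.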

How the data were processed

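The submitters' processing notes name Bowtie 0.12.8 for reads, MACS 1.4.2 for peaks and mm9 as the build. Parameters, the use of the input library and the annotation tool are not given in the sources used here. The deposited tag numbers are raw read counts per peak, the deposited fold is a linear ratio to the expected background, and the deposited score was taken as minus 10 times the log10 of p, since its lowest value is 50.03. Positions and distances in bp were taken as deposited.

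The 15228 listed transcripts were matched to RefSeq (GRCm38.p6) by accession (14992), symbol (192) or older symbol (32), and 12 did not match. The background was the protein-coding genes of the autosomes and X that have a curated mRNA. Peaks within 5 kb of a TSS counted for every listed gene. Intervals are exact (95%) and cover counting error only. Every member with a peak was named, and of other Wnt genes up to 3 per role by score. Tbl1x was named in addition, for a fold above those of the members' promoter peaks. Alternatives were narrower and wider windows, closest genes, and score and fold thresholds. Members and lists were chosen with earlier results of these data known. Calls and TSS recovery were run on simulated data built with the assumed distance convention. That run checks the code and cannot show that the deposited distances follow the convention. Python 3.11.15, pandas 2.3.3 and scipy 1.17.1 were used.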

Additional observations from a re-analysis of the deposited data

How the results depend on the processing

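The list holds 1 library, so neither the spread between cultures nor the effect of duplicate reads could be measured, and a gene without a listed peak may still hold tags below the caller's threshold. Changing the TSS window to 1 kb, to 20 kb or to the start itself, or using closest genes only, left the counts for the members, for each role, for the other Wnt genes and for all genes within 1.5 times. The same held for measuring from the summit where the TSS was recovered (21 members), a setting chosen after seeing the data, and for the median fold and score. Stricter peaks lowered the counts, as fewer peaks remain. With a fold of 5 or more, 12 members, 13 other Wnt genes and 2502 of all genes had a promoter peak. The members included 1 cytoplasmic transducer, Dvl2, and 3 nuclear effectors. With a fold of 10 or more these were 0 members, so 0 in each role, 2 other Wnt genes and 310 of all genes. With a score of 100 or more there were 2 transducers, 3 nuclear effectors, 25 other Wnt genes and 4144 of all genes. With a score at or above the list median there were 1 transducer (again Dvl2), 3 nuclear effectors, 24 other Wnt genes and 3957 of all genes. No paired analysis was possible because each group has 1 library.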

Other observations

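Of the 14 peaks outside a member that covered the start of another gene, 10 had a lower fold than the strongest promoter peak of the member and 4 a higher one. The higher ones were Aurkaip1 (5.71, Dvl1 3.43), Ap2m1 (7.94, Dvl3 4.85), Clstn1 (4.26, Ctnnbip1 3.08) and the shared start peak of Tgoln1 and Tgoln2 (4.44, Tcf7l1 3.64). The lower ones belonged to 8 members. They were Ppp6r3 (3.96, Lrp5 4.54), Kremen1 (2.81, Znrf3 5.66), Srp19 (4.01, Apc 5.41), Erf (4.19, Gsk3a 5.52), Skp1a (3.14, Tcf7 4.56), and Cks1b with Shc1 (4.65, Pygo2 5.76). At Dvl3 the starts of Eif2b5 (3.42) and of Abcf3 with Gm15760 (3.61) were also lower. At Dvl2, whose strongest promoter peak (5.63) covers the start of Phf23, so were Elp5 (4.81) and Gabarap (3.65). This comparison was chosen after its values were seen and concerns fold only. Some peaks lower in fold, such as those of Skp1a and of Cks1b with Shc1, had more tags and a higher score than the member's peak. Others, such as that of Kremen1, had neither.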
